A study of Homo sapiens with 31 samples.

Results

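SPI1 and IRF8 encode transcription factors of the myeloid lineage, and the binding of EVI1 and CTBP2 around both genes was described from ChIP-seq peak lists. A peak was assigned to a gene when it lay in the gene body or within 50 kb on either side, in hg19 coordinates. The SPI1 window (ENSG00000066336) spans chr11:47326411-47450098 and the IRF8 window (ENSG00000140968) spans chr16:85882722-86006212. Of the 533140 peaks in 13 lists, 204 lay in these windows, 122 around SPI1 and 82 around IRF8. Peaks that overlapped between lists were merged into elements, which gave 24 elements in each window. Of these, 6 around SPI1 and 4 around IRF8 were called in at least 7 lists, and 10 and 12 in 1 list only, against 22.1% and 46.1% of all elements of the genome. EVI1 and CTBP2 were both called at 13 of 24 elements around SPI1 and 9 of 24 around IRF8, against 44.6% of all elements.

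All 13 libraries came from 2 human leukemia cell lines, MUTZ3 and MOLM1. MUTZ3 is an acute myelomonocytic leukemia line in which a rearrangement of chromosome 3 activates EVI1. For MUTZ3 with pCW-4xPLDLS, a doxycycline-inducible construct in a transduced population, there were 2 libraries per target (EVI1 or CTBP2) and treatment (untreated or dox), all at 72 h. 4xPLDLS is a peptide that carries repeats of the motif by which partners dock on CTBP2, so the treated cells make a competitor for the EVI1-CTBP2 interaction. MUTZ3 with the retroviral mutant control p50MX-3xFLAG-3xNLS-4xPLASS-Zeo had 2 CTBP2 libraries. Unmodified MUTZ3 (genotype WT) had 1 EVI1 and 1 CTBP2 library, and untreated MOLM1, a clone that carries a dox-inducible short hairpin against EVI1, had 1 CTBP2 library. The labels give a double crosslink with disuccinimidyl glutarate for all but the CTBP2 library of unmodified MUTZ3, which had a single crosslink. The study's own sample table lists a single crosslink for the 4xPLASS and MOLM1 libraries, so the sources disagree on the crosslink of these 3 libraries. Lists held between 6688 and 72214 peaks, with no read counts, so the depth behind each peak is unknown. Nothing in the labels shows that the 2 libraries of a group came from separate cultures, and p-values measure only the spread between these libraries. Each treatment of the inducible cells had 1 input of its own, so treatment and input cannot be told apart in these peak calls.

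SPI1 encodes PU.1, an ETS-family transcription factor that drives monocyte, granulocyte and B-cell development in a dose-dependent way. Its transcription is controlled by a promoter and by an upstream regulatory element about 17 kb from the start, and loss of that element lowers PU.1 and leads to leukemia in mice. IRF8 encodes an interferon regulatory factor that pairs with PU.1 on composite sites and is needed for monocytes and dendritic cells. Its expression depends on enhancers that lie far up and downstream of the gene. EVI1 is a zinc finger protein that binds DNA, and CTBP2 is a corepressor that has no sequence specificity of its own and is brought to chromatin by DNA-binding partners.

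The sequences below are 201 bases of the GRCh37 plus strand around the median summit of 5 elements that carry the results: the upstream element of SPI1, the SPI1 element 29.7 kb upstream and the IRF8 element 37.2 kb downstream, both found in all 13 lists, the IRF8 element with the strongest peak of either window, and a strong IRF8 intronic peak of MOLM1 alone. Capitals mark matches, on either strand, to the core motifs of myeloid factors and of EVI1. The motif of PU.1 and related ETS factors was GAGGAA. That of RUNX factors, which include a well known regulator of SPI1, was TGTGGT. For GATA factors the letters were AGATAA, as for the erythroid and stem cell members. The second zinc finger domain of EVI1 was searched by GATGAG, which resembles an ETS motif. The first zinc finger domain was searched by GACAAGA, which resembles a GATA motif. The E-box of bHLH factors and of ZEB repressors was CAGGTG.
SPI1 upstream element, 16.3 kb before the start, chr11:47416297-47416497: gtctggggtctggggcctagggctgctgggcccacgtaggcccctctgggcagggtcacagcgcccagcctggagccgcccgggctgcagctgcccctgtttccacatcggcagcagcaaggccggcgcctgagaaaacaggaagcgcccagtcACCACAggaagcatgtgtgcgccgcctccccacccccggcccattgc
SPI1 element 29.7 kb before the start, chr11:47429701-47429901: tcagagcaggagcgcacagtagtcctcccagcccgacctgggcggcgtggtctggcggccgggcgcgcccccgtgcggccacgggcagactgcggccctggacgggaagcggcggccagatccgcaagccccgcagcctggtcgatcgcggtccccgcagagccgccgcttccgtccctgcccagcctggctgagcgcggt
IRF8 intron, 17.7 kb after the start, chr16:85950326-85950526: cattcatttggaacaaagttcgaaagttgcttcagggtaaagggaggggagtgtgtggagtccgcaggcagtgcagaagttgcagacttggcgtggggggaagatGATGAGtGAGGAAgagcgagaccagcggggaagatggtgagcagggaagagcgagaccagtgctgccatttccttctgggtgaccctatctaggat
IRF8 element 29.4 kb after the start, chr16:85962028-85962228: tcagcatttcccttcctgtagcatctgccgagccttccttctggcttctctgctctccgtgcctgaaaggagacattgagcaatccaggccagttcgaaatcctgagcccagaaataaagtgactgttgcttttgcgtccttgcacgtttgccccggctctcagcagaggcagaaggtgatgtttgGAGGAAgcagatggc
IRF8 element 37.2 kb after the start, chr16:85969843-85970043: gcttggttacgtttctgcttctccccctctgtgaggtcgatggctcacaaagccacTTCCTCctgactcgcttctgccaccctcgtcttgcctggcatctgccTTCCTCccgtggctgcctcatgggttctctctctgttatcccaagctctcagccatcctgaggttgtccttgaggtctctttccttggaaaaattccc

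The upstream SPI1 sequence held a single match, the RUNX motif on the minus strand, 54 bases after the summit. RUNX1 is known to act on the SPI1 upstream element. Windows of the same length around all summits of a list held this motif in 17.4% of 61338 cases for CTBP2 untreated replicate 1. The element 29.7 kb upstream held none of the motifs and was 76.1% G or C, against a median of 58.2% over the 70763 windows of EVI1 untreated replicate 2. The element 37.2 kb after the IRF8 start held GAGGAA at 2 positions, 3 bases after and 44 bases before the summit, and 27.1% of those EVI1 windows had it. In the MOLM1 intronic site GATGAG and GAGGAA stood 1 base apart, at 5 and 12 bases from the summit. In MOLM1 GAGGAA was in 40.2% and GATGAG in 14.2% of 64517 CTBP2 windows. Over all elements, GAGGAA was found in 4 of 24 around SPI1 and 10 of 24 around IRF8, TGTGGT in 7 and 1, AGATAA in 2 and 1, GATGAG in 5 and 7, CAGGTG in 9 and 8, and GACAAGA in 0 and 0. Over the same EVI1 windows AGATAA was in 5.69%, GATGAG in 13.4%, CAGGTG in 25.4% and GACAAGA in 3.1%. These are matches of letters in 1 window length and do not show which protein binds there.

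The 2 genes differed at their starts. A peak at the SPI1 start was called in 11 of 13 lists, with the 11 summits within 102 bp of each other, just upstream of the annotated start. Its fold enrichment, the ratio of signal to local background at the summit, for EVI1 was 7.91 and 10.6 (untreated), 12.3 and 7.57 (dox) and 4.04 (unmodified MUTZ3), and for CTBP2 it was 8.16 and 4.72 (untreated), 3.11 and 4.28 (dox), 3.58 (4xPLASS replicate 2) and 7.65 (MOLM1). EVI1 values overlapped between treatments, and CTBP2 values with dox lay below those without. It was called in neither the CTBP2 list of unmodified MUTZ3 nor 4xPLASS replicate 1. No list had a peak within 1 kb of the IRF8 start, where the nearest peak lay 9.88 to 37.3 kb away. Of 20163 protein-coding genes, 67.6% had a peak of at least 1 list within 1 kb of the start, 52.9% had a CTBP2 peak there in both untreated libraries and 56.0% had an EVI1 peak in both.

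**Figure D1:**
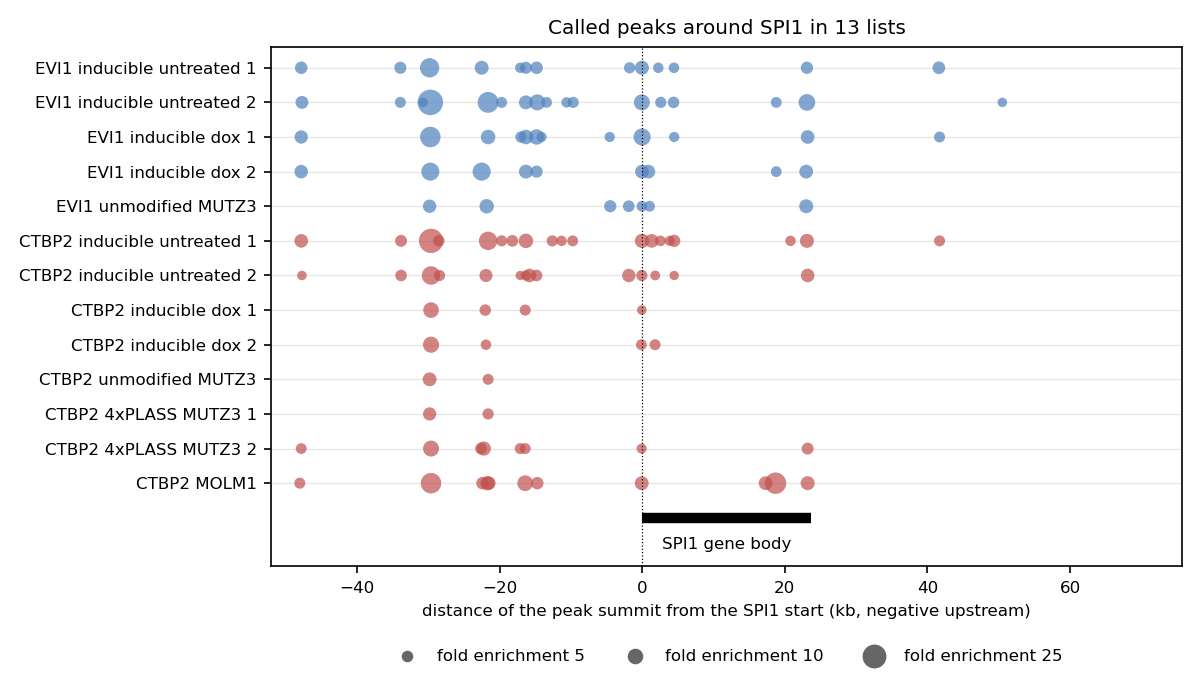
Peaks around SPI1, 1 row per list, by the distance of their summit from the SPI1 start in kb on the x axis. Point area grows with fold enrichment, EVI1 lists are blue and CTBP2 lists red, and the black bar is the gene body. Peaks at 21.8 and 29.7 kb upstream appear in every row, and the CTBP2 dox rows hold 4 peaks each.

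The strongest element of the SPI1 window lay 29.7 kb upstream and was called in all 13 lists. Its main summits were in introns of the zinc transporter gene SLC39A13 and of the antisense transcript SLC39A13-AS1. Weaker summits 28.5 kb upstream lay outside SLC39A13, so the end of that gene nearer SPI1 falls within this element. About 33.8 kb upstream, a CTBP2 summit lay in a UTR of SLC39A13, and other summits slightly farther from SPI1 lay in a coding exon. If that UTR is the 5' one, the element holds the start of SLC39A13. The type of UTR was not examined. Whether the element acts on SPI1 or on SLC39A13 was not tested. Of 131683 elements merged over the whole genome, 2.33% were called in all 13 lists, and 24.9% of protein-coding genes had such an element in their window. SPI1 had 2 and IRF8 had 1. The CTBP2 fold enrichment 29.7 kb upstream was 26.0 and 14.6 (untreated), 10.1 and 10.8 (dox), 7.64 in unmodified MUTZ3, 6.85 and 10.6 in 4xPLASS cells and 18.1 in MOLM1. Both dox values were below both untreated values. EVI1 fold enrichment there was 16.0 and 28.9 (untreated), 18.2 and 13.8 (dox) and 7.09 in unmodified MUTZ3, so that the treated and untreated values overlapped. It was the strongest SPI1 peak in 10 of 13 lists. It stood highest in CTBP2 untreated replicate 1, at rank 913 of 62232, the top 1.47% of that list.

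The other SPI1 element of all 13 lists lay 21.8 kb upstream in an intron of SLC39A13-AS1. Its summits were spread between 21.5 and 22.6 kb upstream. CTBP2 fold enrichment was 14.5 and 6.73 (untreated), 4.92 and 3.9 (dox), 4.37 (unmodified), 4.61 and 8.08 (4xPLASS) and 8.13 (MOLM1), again with both dox values below both untreated values. For EVI1 it was 7.73 and 18.8 (untreated), 8.57 and 14.0 (dox) and 8.37 (unmodified), with overlap.

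The upstream regulatory element of SPI1 is marked by the merged interval nearest to 17 kb, with a median summit 16.3 kb upstream, in an intron of SLC39A13-AS1, and called in 9 lists. In all 9 lists a summit lay in the same 91 bp, which span chr11:47416380-47416471. CTBP2 fold enrichment at that summit was 8.49 and 3.74 in untreated cells, where replicate 2 had a stronger summit (7.29) 15.8 kb upstream. After dox, replicate 1 had 4.49, and replicate 2 had no peak in the interval. MOLM1 had 10.2 and 4xPLASS replicate 2 had 4.36, whereas the CTBP2 list of unmodified MUTZ3 and 4xPLASS replicate 1 had no peak. EVI1 at the same summit had 5.59 and 7.72 (untreated) and 8.66 and 7.72 (dox), and no peak in unmodified MUTZ3. At this summit EVI1 was called in all 4 inducible libraries and CTBP2 in 3 of 4. A further group of 6 summits stood 14.8 kb upstream, with EVI1 fold enrichments of 6.04 and 10.7 in untreated and 9.75 and 5.62 in dox cells, and CTBP2 summits in untreated replicate 2 (5.03) and MOLM1 (5.95). The CTBP2 peak of untreated replicate 1, with its summit at 16.3 kb, also covered this position. Around 17.1 kb upstream, 4 lists had a weak summit with fold enrichments of 2.72 to 4.69.

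Inside SPI1, an element over a coding exon 23.1 kb after the start was called in 9 lists. CTBP2 fold enrichment was 7.86 and 7.29 in untreated cells with no peak in either dox library, while EVI1 had 5.82 and 11.7 (untreated), 7.41 and 7.61 (dox) and 7.79 (unmodified). MOLM1 had 7.84 and 4xPLASS replicate 2 had 5.42. An intronic element 18.8 kb after the start was the strongest SPI1 peak of MOLM1, at a fold enrichment of 19.9 (top 4.47% of the list). No CTBP2 list of MUTZ3 had a peak there, and EVI1 had weak ones in untreated replicate 2 (4.25) and dox replicate 2 (4.19). At the far end of the window, 47.8 kb upstream over a UTR of the proteasome gene PSMC3, 8 lists had a peak. CTBP2 had 7.34 and 2.99 there in untreated cells and none with dox, and EVI1 had 6.02 and 6.49 (untreated) and 6.97 and 7.24 (dox), both dox values being the higher. MOLM1 had 4.41 and 4xPLASS replicate 2 had 4.25. The MOLM1 summit, 48.0 kb upstream, was intergenic, so an end of PSMC3 falls within this element.

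**Figure D2:**
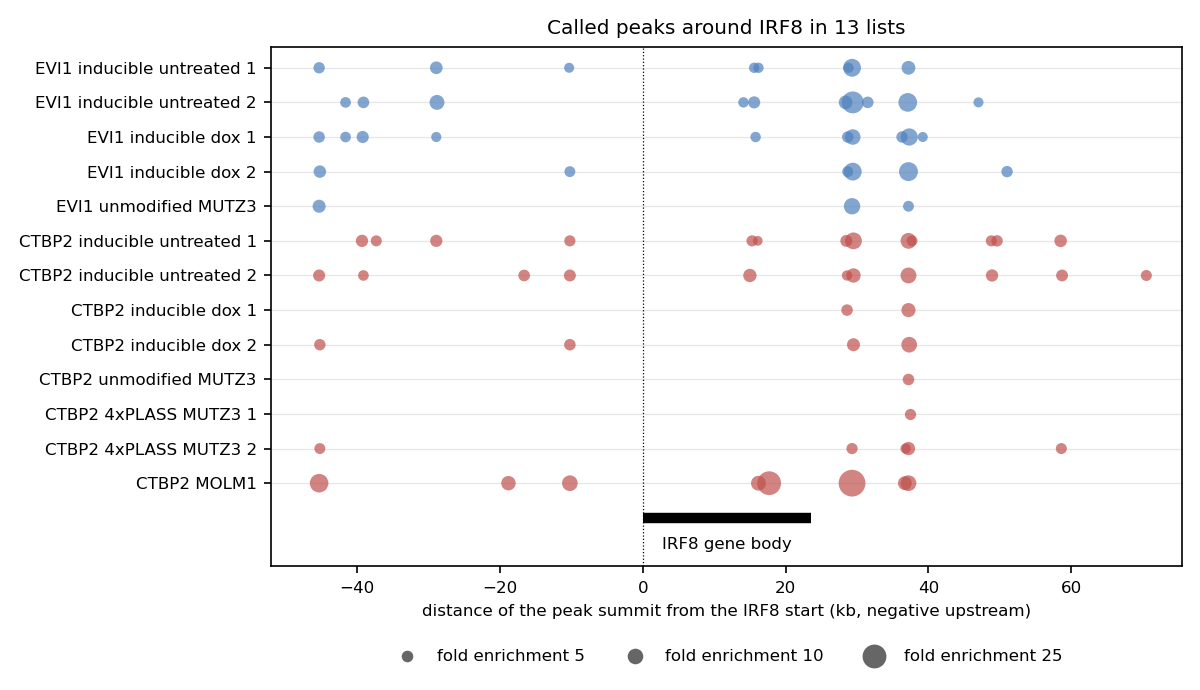
Peaks around IRF8, 1 row per list, by the distance of their summit from the IRF8 start in kb on the x axis. Point area grows with fold enrichment, EVI1 lists are blue and CTBP2 lists red, and the black bar is the gene body. No point falls within 9.88 kb of the start, and a peak 37.2 kb downstream appears in every row.

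Around IRF8, 3 of the 4 elements called in at least 7 lists lay downstream of the gene, in introns of the long noncoding RNA ENSG00000285163, and 1 lay upstream. The element 37.2 kb after the start was called in all 13 lists. CTBP2 fold enrichment was 10.3 and 10.4 (untreated), 8.0 and 10.1 (dox), 4.95 in unmodified MUTZ3, 4.62 and 6.92 in 4xPLASS cells and 10.2 in MOLM1. Both CTBP2 dox values were below the untreated ones, by little. EVI1 had 7.57 and 14.9 (untreated), 12.5 and 15.3 (dox) and 4.28 (unmodified). It was the strongest IRF8 peak in both EVI1 dox lists and in 6 CTBP2 lists.

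The element 29.4 kb after the IRF8 start was called in 10 lists and was the strongest peak of the window in the other 5 lists. EVI1 fold enrichment was 13.5 and 20.9 (untreated), 9.93 and 13.5 (dox) and 11.2 (unmodified). Before rounding, both EVI1 dox values were below the untreated ones. CTBP2 in untreated cells had 11.8 and 8.3, and after dox 6.58 in replicate 2 and no peak in replicate 1. The 4xPLASS replicate 2 had 4.61. In MOLM1 the CTBP2 fold enrichment was 31.8, rank 419 of 64569, the top 0.649% of the list. MOLM1 also had an intronic IRF8 peak 17.7 kb after the start with a fold enrichment of 24.8 (top 2.0%) that no other list shared. That site was singled out after its values were seen. Over the genome, 35.5% of 56541 MOLM1 elements were in no other list. The cell line, crosslink and library cannot be told apart in this comparison.

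The element 28.6 kb after the start was called in 7 lists, with CTBP2 fold enrichments of 5.41 and 3.73 (untreated) and 4.92 in the first dox library, and no peak in the other. EVI1 there had 3.76 and 7.48 (untreated) and 4.89 and 4.47 (dox). The intergenic element 45.3 kb upstream was called in 8 lists, including MOLM1 at 14.7, above the 10.2 of MOLM1 at 37.2 kb downstream. In the CTBP2 lists of inducible cells it was called only in untreated replicate 2 (5.51) and dox replicate 2 (4.83). Among EVI1 lists it was in untreated replicate 1 (4.75), both dox lists (4.89 and 5.98) and unmodified MUTZ3 (6.68), above the 4.28 of that list at 37.2 kb downstream.

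The strongest peak of each window was compared by its rank within each list. The SPI1 window reached a median of the top 6.59% over the 13 lists, from 1.47% to 22.8%. The IRF8 window reached a median of the top 11.3%, from 0.649% in MOLM1 to 61.2% in 4xPLASS replicate 1. The SPI1 peak ranked higher than the IRF8 peak in 10 lists, and the IRF8 peak ranked higher in EVI1 dox replicate 2, EVI1 unmodified MUTZ3 and MOLM1. By this profile of 13 percentiles, the genes most like SPI1 were PFKFB3, PTGS2 and ACER3, at mean absolute differences of 2.46, 2.7 and 2.77 percentage points. The median over 20155 genes was 26.0 points. For IRF8 they were TRIM2, LRRC39 and TRMT13 at 4.56, 5.07 and 5.07 points, against a median of 20.3 over 20160 genes. The last pair are neighbours whose gene bodies overlap. SPI1 and IRF8 differed from each other by 12.3 points. In likeness to SPI1, IRF8 had rank 4973 of 20155 genes, and SPI1 had rank 3357 of 20160 in likeness to IRF8.

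EVI1 and CTBP2 were compared at sites, which are intervals called in both untreated libraries of a target. The SPI1 window held 10 CTBP2 and 9 EVI1 sites, or 8.08 and 7.28 per 100 kb, and the IRF8 window 7 and 4, or 5.67 and 3.24. Of protein-coding genes, 8.74% were at or above SPI1 and 20.0% at or above IRF8 in CTBP2 sites per 100 kb. For EVI1 sites the shares were 15.4% and 41.5%. All 10 CTBP2 sites around SPI1 shared at least 1 bp with an EVI1 site, against 82.5% of 37227 CTBP2 sites in the genome. The SPI1 share was 90.0% with a 50% overlap, and lower still with summits within 200 bp. The SPI1 sites 28.6 and 29.7 kb upstream overlapped the same EVI1 site. No EVI1 list had a summit beside the CTBP2 summits 28.5 kb upstream. Around IRF8, 2 of 7 CTBP2 sites overlapped an EVI1 site (28.6%), at 29.4 and 37.2 kb downstream. The CTBP2 site 28.6 kb downstream overlapped an EVI1 peak in each untreated library. Those EVI1 peaks did not overlap each other, so they made no EVI1 site. With the EVI1 peaks of either untreated library alone, 57.1% of the IRF8 sites overlapped, against 90.0% and 100.0% of the SPI1 sites. Of the EVI1 sites, 9 of 9 around SPI1 and 2 of 4 around IRF8 overlapped a CTBP2 site, against 75.9% of 40449 in the genome. With EVI1 taken from unmodified MUTZ3, 50.0% of the SPI1 sites overlapped. At the SPI1 start the strongest EVI1 and CTBP2 summits of the same replicate number were 21 and 5 bp apart. At 29.7 kb upstream they were 114 and 153 bp apart, and at the IRF8 element 37.2 kb downstream 27 and 109 bp. The strongest summits were farther apart in the SPI1 element 21.8 kb upstream (843 and 331 bp), the upstream element 16.3 kb before the start (1520 and 1119 bp) and the IRF8 element 28.6 kb downstream (352 and 274 bp). In the upstream element the strongest EVI1 and CTBP2 summits belonged to different groups of summits. Both proteins also had a summit there within the same 91 bp in each untreated library.

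With dox, fewer CTBP2 peaks were called around both genes. In the SPI1 window there were 19 and 14 CTBP2 peaks without dox (16.5 ± 3.54, SD, n = 2) and 4 and 4 after it (4.0 ± 0.0), and in the IRF8 window 13 and 11 (12.0 ± 1.41) and 2 and 4 (3.0 ± 1.41). Both untreated libraries were above both dox libraries in each window, as they were for 65.9% of all protein-coding genes. By exact permutation over libraries (two-sided) p was 0.333 for each, the smallest that 2 against 2 libraries allow. CTBP2 peaks fell by 75.8% around SPI1 and by 75.0% around IRF8. The median decline over 10897 genes with a mean of at least 5 peaks in untreated cells was 64.0%, and 23.5% and 26.3% of them declined as much or more. The whole CTBP2 lists declined from 62232 and 56526 peaks to 24588 and 23878. With each list reduced to its 23878 strongest peaks, the SPI1 window had 7 and 5 peaks in untreated and 4 and 4 in dox cells, and the IRF8 window had 2 and 3 against 2 and 4, so the IRF8 difference no longer pointed down.

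**Figure D3:**
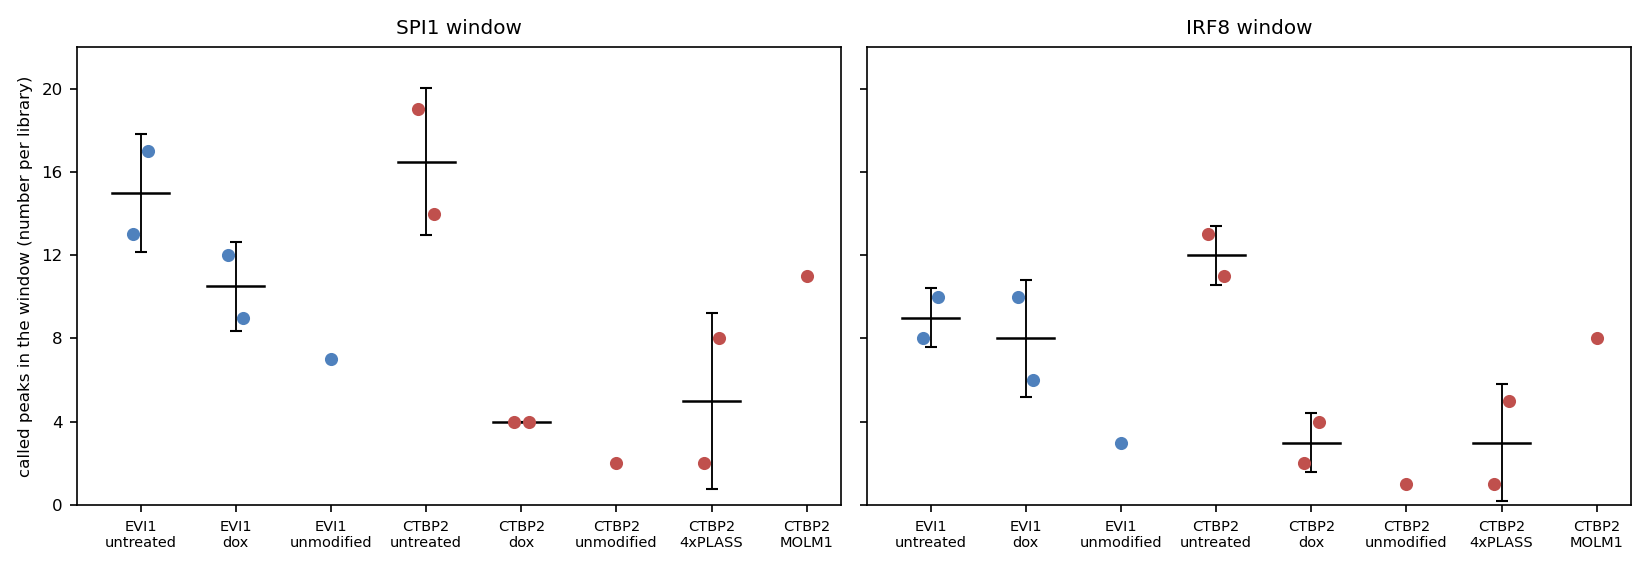
Number of called peaks per library in the SPI1 window (left) and the IRF8 window (right), by target and cells. Points are libraries, horizontal lines the mean and error bars the SD where there are 2 libraries. CTBP2 dox libraries hold 4 and 4 peaks around SPI1 and 2 and 4 around IRF8, below the untreated libraries.

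EVI1 peaks were fewer after dox around SPI1 and overlapped in number around IRF8. In the SPI1 window there were 13 and 17 EVI1 peaks without dox (15.0 ± 2.83, SD, n = 2) and 12 and 9 after it (10.5 ± 2.12), with p = 0.333 by the exact permutation test. In 16.0% of genes both untreated libraries were likewise above both dox libraries. The IRF8 window had 8 and 10 (9.0 ± 1.41) and 10 and 6 (8.0 ± 2.83), which overlapped (p = 1.0, exact permutation test). The mean fell by 30.0% around SPI1 and by 11.1% around IRF8, against a median of 18.2% over genes, and 25.1% and 64.2% of genes declined as much or more. With each EVI1 list reduced to its 47599 strongest peaks, the SPI1 window had 13 and 8 peaks without dox and 9 and 9 after it, which overlapped. The difference between the CTBP2 and EVI1 responses was not tested.

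CTBP2 and EVI1 sites were chosen by their calls in untreated libraries, and that choice favours loss with dox in the shares below. Sites called in both dox libraries were not followed back to untreated cells. Followed site by site, of the 10 CTBP2 sites around SPI1, 3 had a peak in both dox libraries, 2 in 1 of them and 5 in neither. Around IRF8 these numbers were 1, 3 and 3 of 7. Of all CTBP2 sites, 38.4% had a peak in both and 41.0% in neither, with 50.8% in replicate 1 and 46.5% in replicate 2. The mean share with a peak in a dox library was 40.0% ± 0.0 (SD, n = 2 dox libraries) around SPI1, 35.7% ± 10.1 around IRF8 and 48.7% ± 3.03 over the genome. The SPI1 sites that kept CTBP2 in both dox libraries were the start and those 21.8 and 29.7 kb upstream, and the IRF8 site was that 37.2 kb downstream. Those that lost it in both were, around SPI1, the sites 23.1 and 4.5 kb after the start and those 28.6, 33.8 and 47.8 kb before it, and around IRF8 the sites 39.2 kb upstream and 48.9 and 58.6 kb downstream. Genome-wide, this share went with strength. CTBP2 sites were split into quintiles by fold enrichment in untreated replicate 1 alone. From the strongest to the weakest quintile, 81.4%, 47.3%, 29.0%, 19.6% and 14.7% had a peak in both dox libraries. The SPI1 sites at 21.8 and 29.7 kb upstream were in the strongest quintile, and the kept site at the start was in the middle one. Of the 7 IRF8 sites 0 were in the strongest quintile, and the sites 29.4 and 37.2 kb downstream were in the next.

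EVI1 sites mostly kept a peak after dox. Around SPI1, 7 of 9 had a peak in both dox libraries and 1 in neither, and around IRF8 2 of 4 and 0. Over the genome 78.1% of EVI1 sites had a peak in both and 9.01% in neither, with 88.2% in replicate 1 and 80.9% in replicate 2. The mean shares were 83.3% ± 7.86 around SPI1, 75.0% ± 35.4 around IRF8 and 84.5% ± 5.2 over all sites. At the 3 SPI1 sites where CTBP2 was called in all 4 libraries, the log2 ratio of mean fold enrichment (dox over untreated) was -0.80 at the start, -1.27 at 21.8 kb and -0.96 at 29.7 kb upstream. The median over 14297 such sites was -0.88. Dox values were below untreated values without overlap at all 3, as at 72.5% of those sites. At the IRF8 site 37.2 kb downstream the log2 ratio was -0.20, also without overlap. For EVI1 the median log2 ratio was -0.12 over 7 SPI1 sites and -0.12 over 2 IRF8 sites, against -0.25 over 31593 sites of the genome. EVI1 dox values lay below untreated values without overlap at 0 of the 7 SPI1 sites and 1 of the 2 IRF8 sites, 29.4 kb downstream, as at 35.3% of those 31593 sites.

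**Figure D4:**
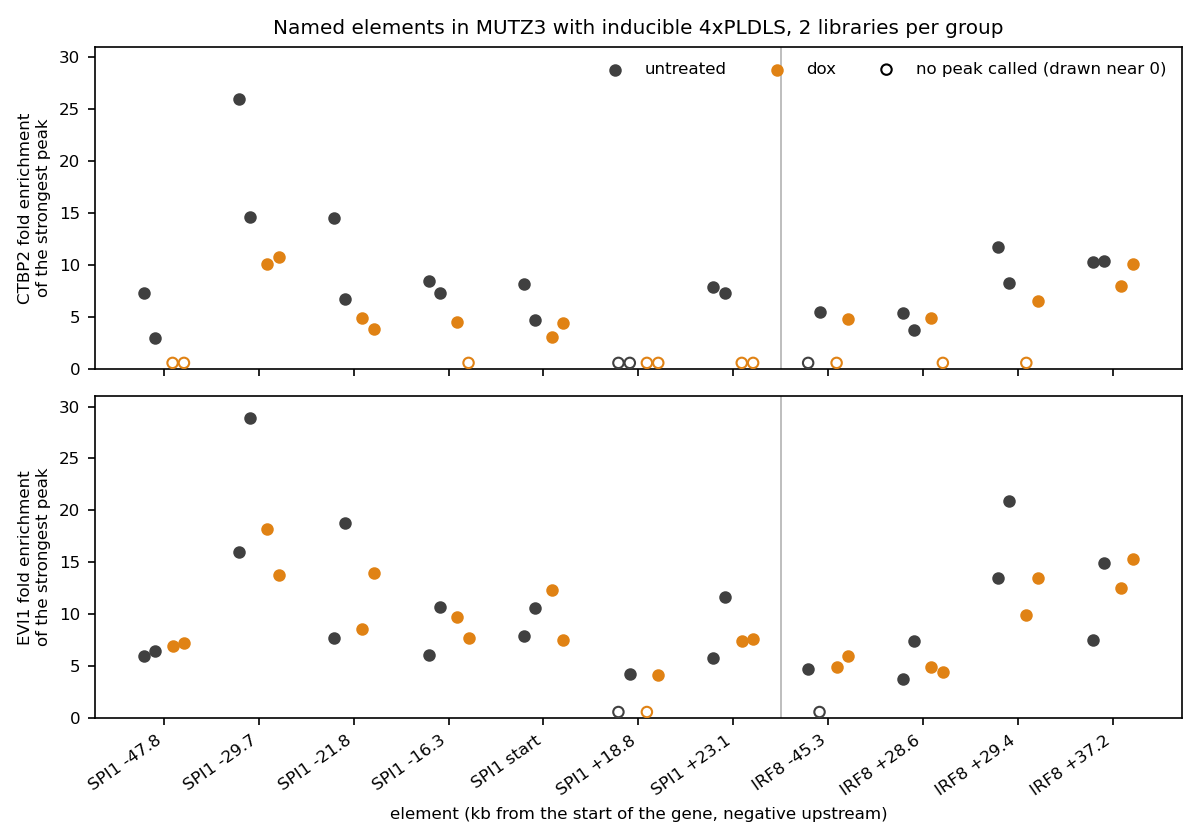
Fold enrichment of the strongest CTBP2 (top) and EVI1 (bottom) peak at the 11 named elements in MUTZ3 with inducible 4xPLDLS. Each point is 1 of 2 libraries per treatment, grey for untreated and orange for dox, and open points near 0 mark libraries with no call. CTBP2 dox points lie below the untreated points at the SPI1 start and at 21.8 and 29.7 kb upstream, and narrowly at 37.2 kb downstream of IRF8, while EVI1 points of both treatments overlap at most elements.

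Outside the inducible cells the windows held fewer peaks where lists were short. Unmodified MUTZ3 had 7 EVI1 and 2 CTBP2 peaks around SPI1 and 3 and 1 around IRF8. The 4xPLASS libraries had 2 and 8 CTBP2 peaks around SPI1 and 1 and 5 around IRF8, in lists of 6688 and 31310 peaks. MOLM1, with 64569 peaks, had 11 and 8. The part of list size in these counts was not tested.

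Other genes of the myeloid program were described in the same way, from lists chosen with earlier results of these data known. Among 29 genes for transcription factors that work beside PU.1 and IRF8, 27 had a CTBP2 site in their window, as did 85.9% of all protein-coding genes, with a median of 6 sites. Of their 234 CTBP2 sites 38.5% had a peak in both dox libraries and 38.0% in neither, against 38.4% and 41.0% of all CTBP2 sites. For their 239 EVI1 sites these shares were 84.5% and 7.11%, against 78.1% and 9.01% of all EVI1 sites. The genes with the most CTBP2 sites were IRF1 (22 sites, 8 in both dox libraries and 9 in neither), the stem cell factor RUNX1 (22, 10 and 9), and the ETS genes ERG (17, 8 and 6) and ETV6 (17, 10 and 7). Per 100 kb of window, IRF1 had 13.1 CTBP2 sites, RUNX1 1.67, ERG 4.45 and ETV6 4.92, against a median of 2.33 over all protein-coding genes. KLF4 and SPIC had no CTBP2 site. SPI1 and IRF8, at 10 and 7 sites, were above the median of 6 sites in this list.

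Among 37 genes known as targets of PU.1 or IRF8 in myeloid cells, 35 had a CTBP2 site, against the same 85.9% of all genes, with a median of 7 sites. Of 285 CTBP2 sites 46.3% had a peak in both dox libraries and 38.2% in neither, against 38.4% and 41.0% of all CTBP2 sites. For the 308 EVI1 sites these shares were 79.5% and 9.74%, against 78.1% and 9.01% of all EVI1 sites. The highest numbers were at FGR, a SRC-family kinase gene (20 sites, 10 in both dox libraries and 9 in neither), the cytokine receptor gene CSF2RA (19, 8 and 6), the MHC class II activator gene CIITA (18, 8 and 8) and CSF1R, which encodes the M-CSF receptor (18, 9 and 8). TLR4 had no CTBP2 site. The median over all protein-coding genes was 3.0 CTBP2 and 4.0 EVI1 sites. Windows differ in length and neighbouring windows share sites, so these numbers are descriptions.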

How the data were processed

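ChIP-seq peak lists of 13 of the 31 samples were analysed. The authors aligned reads to hg19 with bowtie (1.1.1 in the submitters' processing notes) and called peaks per library with MACS2 (2.1.2 in those notes) against an input. The untreated inducible cells had 1 input and the dox cells 1, each shared by both targets. The deposited fold enrichment is the authors' ratio of signal to local background at the summit, given beside the −log10 p-value and −log10 q-value that the authors' caller assigned. Ranks were taken within a list. Fold enrichment was also compared between libraries of the same target and cells, with no correction for depth, which is unknown. Genes came from GENCODE release 44 mapped to GRCh37, and peaks on its main chromosomes lay within that assembly's lengths.

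Intervals overlapped when they shared at least 1 bp. An element was merged over all 13 lists, and a site was called in both untreated libraries. Elements were named when called in at least 7 lists, within 1 kb of a start, nearest 17 kb upstream of SPI1, or strongest in a list. Of the other genes, the 4 with the most CTBP2 sites per list were named, and KLF4, SPIC and TLR4 were added after their values were seen. Likeness was the mean absolute difference of the percentile of the strongest peak over the 13 lists. Numbers of peaks were tested by exact permutation over libraries, two-sided. The authors' DiffBind comparison needs reads and was not repeated. Some items are not reported here. The members and lists were chosen with earlier results of these data known. The procedure was tested on simulated lists and checked against bedtools 2.31.1. Scripts ran in Python 3.11.15 (pandas 2.3.3, numpy 2.4.6, scipy 1.17.1, matplotlib 3.10.9). Alternatives were a fold enrichment or −log10 q of at least 5, lists of equal size, other windows, a 50% overlap, summits within 200 bp, other sites, ranks by −log10 p, libraries left out and replicates compared by number.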

Additional observations from a re-analysis of the deposited data

How the results depend on the processing

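The CTBP2 decline in the SPI1 window kept its direction in each alternative, from -2.0 peaks with lists of equal size to -16.5 with 100 kb flanks. In the IRF8 window it was 0.5 with lists of equal size and otherwise -1.5 to -18.0. The EVI1 difference in the SPI1 window (-4.5) was -0.5 with a fold enrichment of at least 5 (p = 1.0, exact permutation test) and -1.5 with lists of equal size (p = 1.0, exact permutation test). In the IRF8 window it was 0.5 with a −log10 q of at least 5 and 0.0 with lists of equal size. Leaving out 1 library gave -15.0 to -10.0 (CTBP2, SPI1), -10.0 to -8.0 (CTBP2, IRF8), -6.5 to -2.5 (EVI1, SPI1) and -3.0 to 1.0 (EVI1, IRF8, where it was 0.0 without untreated replicate 2 and 1.0 without dox replicate 2). With the replicate number as a block the differences were the same, -12.5, -9.0, -4.5 and -1.0, and the exact sign-flip test of 2 pairs gave p = 0.5 for the first 3 and 1.0 for the last. The libraries share only a number, and nothing shows that it pairs them.

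The share of CTBP2 sites with a dox peak around SPI1 (40.0%) was 20.0% with a fold enrichment of at least 5 (5 sites), 62.5% with lists of equal size (4 sites), 20.0% for sites of either untreated library, 24.8% in the block by replicate number and 21.1% to 40.0% with 1 library left out. Around IRF8 (35.7%) it was 50.0% (3 sites), 75.0% (2 sites), 17.6%, 25.9% and 19.2% to 42.9%. For EVI1 around SPI1 (83.3%) it was 100.0% with a fold enrichment of at least 5, 47.2% for sites of either untreated library, 68.8% in the block and 52.9% to 88.9% with 1 library left out. For EVI1 around IRF8 (75.0%) it was 52.5% in the block and 50.0% to 100.0% with 1 library left out. Without an untreated library, and in the block, all peaks of a single untreated list were followed. These are other sets than the sites called in both untreated libraries. For CTBP2 around SPI1 they held 14 peaks without untreated replicate 1 and 19 without replicate 2.

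The overlap of SPI1 CTBP2 sites with EVI1 (100.0%) was 90.0% with a 50% overlap. It was lower still with summits within 200 bp and with a fold enrichment of at least 5 (5 sites). The SPI1 share was 50.0% with EVI1 of unmodified MUTZ3. With 1 library left out it was 57.9% to 100.0%, the lowest without CTBP2 untreated replicate 2. For IRF8 (28.6%) the latter range was 18.2% to 57.1%. The log2 change with −log10 q in place of fold enrichment was -2.21 (CTBP2, SPI1), -1.09 (CTBP2, IRF8) and 0.12 (EVI1, SPI1). With 1 library left out it was -1.32 to -0.48 (CTBP2, SPI1), -0.37 to -0.04 (CTBP2, IRF8), -0.47 to 0.35 (EVI1, SPI1) and -0.46 to 0.34 (EVI1, IRF8). The EVI1 medians turned positive without untreated replicate 2 (0.35 and 0.34), without dox replicate 2 around SPI1 (0.16) and without dox replicate 1 around IRF8 (0.05). The cause was not tested. As an alternative added after the data were seen, peaks with a fold enrichment of at least 5 left CTBP2 calls in both dox libraries at the SPI1 element 29.7 kb upstream and the IRF8 element 37.2 kb downstream, in 1 at the IRF8 element 29.4 kb downstream and in 0 at the other named elements. With a −log10 q of at least 5 the SPI1 start and the element 21.8 kb upstream kept 1 dox library each and the IRF8 element 28.6 kb downstream kept 0. Ranked by −log10 p, the median of the strongest peak was the top 4.24% for SPI1 and 14.8% for IRF8. With 10 and 7 CTBP2 sites, single sites weigh heavily in these shares.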
